A study of Mus musculus with 4 samples.

Results

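Retnlg-high neutrophils are neutrophils of mouse hearts that held more UMIs of Retnlg than of Il1b, and 379 of the 40438 kept cell barcodes of the series met that rule. A UMI is a tag that marks 1 captured RNA molecule, so a UMI count is a count of molecules. A barcode was kept with at least 500 UMIs and at most 20% mitochondrial UMIs. It counted as a neutrophil when S100a8 and S100a9 made up at least 0.5% of its UMIs, with at least 1 UMI of Csf3r, at most 1 UMI each of Csf1r and C1qa, and 0 UMIs of Pdgfra, and 5323 barcodes passed. Members also had fewer than 5 UMIs of Ifit1, Ifit3, Rsad2 and Isg15 together, a limit that sets aside neutrophils responding to interferon. The members were thus chosen by measured UMIs of all of these genes, and the levels of Retnlg, Il1b, S100a8, S100a9, Csf3r and the interferon genes in them are given as description only.

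Cells came from hearts of 4 groups, with 1 library each. The first group carried Tcf21-MerCreMer together with a flox allele and was sampled 3 days after myocardial infarction, which kills heart muscle by cutting its blood supply. The second carried Tcf21-MerCreMer alone and was sampled at the same time after infarction. The third carried Tcf21-MerCreMer with the flox allele and the fourth Tcf21-MerCreMer alone, and neither had an infarction. All 4 groups received tamoxifen, which activates MerCreMer, a Cre recombinase driven here by Tcf21, a gene of cardiac fibroblasts. The study's design names a conditional deletion of TCF21 in cardiac fibroblasts. The libraries with the flox allele are called deletion-labelled here, and the others control. This name follows the label only, because the level of Tcf21 in their fibroblasts was not lower than in the control libraries. The labels name neither the floxed part nor the number of animals in a library. They give the cell type as interstitial cells, and the suspensions had been sorted for live nucleated cells. With 1 library per group there is no replicate error, no test was run, and every interval is a 95% interval of counting error alone.

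Neutrophils are made in the bone marrow, where they fill their granules in a fixed order. Azurophil granules with myeloperoxidase and elastase come first, specific granules with lactoferrin, cathelicidin and lipocalin follow under the transcription factor C/EBP epsilon, and gelatinase granules with Mmp9 come last. Transcripts of the early granule proteins are largely gone when a mature cell enters the blood, and after myocardial infarction neutrophils enter the heart in large numbers within the first days. Retnlg encodes resistin-like gamma, a small secreted protein of blood neutrophils, and Il1b encodes interleukin-1 beta, an inflammatory cytokine.

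The sequences just before the start of 5 genes described here are printed. Retnlg is the gene that defines the cells, and Mmp8 is a collagenase found in most members. Ltf, Ngp and Camp are the early granule genes carried by a few of them. They come from RefSeq on GRCm38.p6, and each run ends before the gene start of both RefSeq and GENCODE M21. Capitals mark the letters TTGCNNAA, a form of the C/EBP motif, or GAGGAAG, a form of the PU.1 motif, read on both strands.
Retnlg (chr16:48872358-48872607, plus strand): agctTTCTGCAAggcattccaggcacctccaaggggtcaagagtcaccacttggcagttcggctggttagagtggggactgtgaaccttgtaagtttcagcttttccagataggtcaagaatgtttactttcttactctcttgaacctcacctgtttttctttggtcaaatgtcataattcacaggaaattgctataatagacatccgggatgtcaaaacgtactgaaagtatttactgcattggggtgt
Mmp8 (chr9:7558179-7558428, plus strand): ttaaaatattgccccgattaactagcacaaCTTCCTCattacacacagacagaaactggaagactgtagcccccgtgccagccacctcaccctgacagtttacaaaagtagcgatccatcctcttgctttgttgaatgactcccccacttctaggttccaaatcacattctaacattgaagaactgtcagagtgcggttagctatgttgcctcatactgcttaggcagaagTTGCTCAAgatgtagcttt
Ltf (chr9:111019042-111019270, plus strand): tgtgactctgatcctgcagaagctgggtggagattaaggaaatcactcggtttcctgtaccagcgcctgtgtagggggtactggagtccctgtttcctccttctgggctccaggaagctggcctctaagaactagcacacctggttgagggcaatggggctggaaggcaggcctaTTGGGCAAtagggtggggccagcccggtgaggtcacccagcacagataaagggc
Ngp (chr9:110419558-110419746, plus strand): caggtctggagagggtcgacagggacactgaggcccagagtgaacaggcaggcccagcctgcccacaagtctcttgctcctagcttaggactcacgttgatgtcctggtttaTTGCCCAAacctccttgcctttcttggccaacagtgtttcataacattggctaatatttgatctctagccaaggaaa
Camp (chr9:109849618-109849706, minus strand): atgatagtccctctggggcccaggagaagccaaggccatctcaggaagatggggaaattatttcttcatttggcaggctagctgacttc
In the 250 bases before the RefSeq start, TTGCNNAA was found in 8 of 18 granule and marker genes (44.4%), against 9.56% of all 32851 promoters of the same length. GAGGAAG was found in 6 of the 18 (33.3%), against 10.6% of all promoters. Retnlg had 1 C/EBP match, 246 bases before its start on the minus strand, and no PU.1 match, while Mmp8 had a C/EBP match 19 bases and a PU.1 match 220 bases before its start. Ngp had 2 C/EBP matches, at 138 and 11 bases, of which the nearer lies beyond the printed run, Ltf had 1 at 75 bases, and Camp had none. A match describes letters only, and no binding was measured.

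The libraries held between 55710468 and 129704045 UMIs over 9149 to 11541 barcodes, and 8946 to 11175 barcodes were kept in each. Tcf21 stood at 29.7 CPM (28.1 to 31.4) in the fibroblasts of the deletion-labelled and 20.9 CPM (19.5 to 22.5) in those of the control infarction library, and at 133 CPM (129 to 137) and 91.7 CPM (87.8 to 95.7) in the deletion-labelled and control libraries without infarction. CPM are UMIs of a gene per 1000000 UMIs of a summed group of cells. The level of the targeted gene was thus not lower where the labels name its deletion, although the floxed part is not given and reads of the transcript's end may lie outside it. Tcf21 and MerCreMer had 0 UMIs in the members of every library. Of all kept barcode sequences, 152 occurred in more than 1 library, and no member shared its barcode with a member of another library.

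Members numbered 198 in the deletion-labelled and 152 in the control library after infarction, and 22 in the deletion-labelled and 7 in the control library without infarction. They made up 1.91% (1.66 to 2.19) and 1.53% (1.30 to 1.79) of the kept barcodes of the deletion-labelled and control infarction libraries, against 0.197% (0.123 to 0.298) and 0.0782% (0.0315 to 0.161) of the deletion-labelled and control libraries without infarction. Among neutrophils the order was the opposite. Members were 7.76% (6.75 to 8.87) of 2552 neutrophils in the deletion-labelled and 5.76% (4.91 to 6.72) of 2637 in the control infarction library, against 22.0% (14.3 to 31.4) of 100 and 20.6% (8.70 to 37.9) of 34 in the deletion-labelled and control libraries without infarction. The hearts after infarction thus held more of these cells per barcode but a smaller share of them among neutrophils. After infarction the intervals of the 2 genotypes overlapped for the share of kept barcodes and did not overlap for the share of neutrophils, whose difference has no replicate check. With Retnlg at least 3 times Il1b, the intervals for the share of neutrophils overlapped, at 2.98% (2.35 to 3.71) in the deletion-labelled and 2.77% (2.18 to 3.47) in the control library. With S100a8 and S100a9 at 5% or more they did not overlap. Shares of kept barcodes also depend on the sort and on how many cells of other types were loaded.

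Members held a median of 2786.5 UMIs in the deletion-labelled and 2755.5 in the control infarction library, and 4575 and 3086 in the deletion-labelled and control libraries without infarction. Il1b-high neutrophils, the gated neutrophils with more Il1b than Retnlg UMIs and the same interferon limit, numbered 2159 and 2352 in the deletion-labelled and control infarction libraries, with medians of 2368 and 2214.5 UMIs. S100a8 and S100a9 together took a median of 12.0% and 15.4% of the UMIs of members in the deletion-labelled and control infarction libraries, and 3.84% and 5.17% of those of Il1b-high cells. A score from simulated cell pairs marked 13 and 5 members of the deletion-labelled and control infarction libraries as possible doublets, and 2 and 0 of those without infarction.

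**Figure D1:**
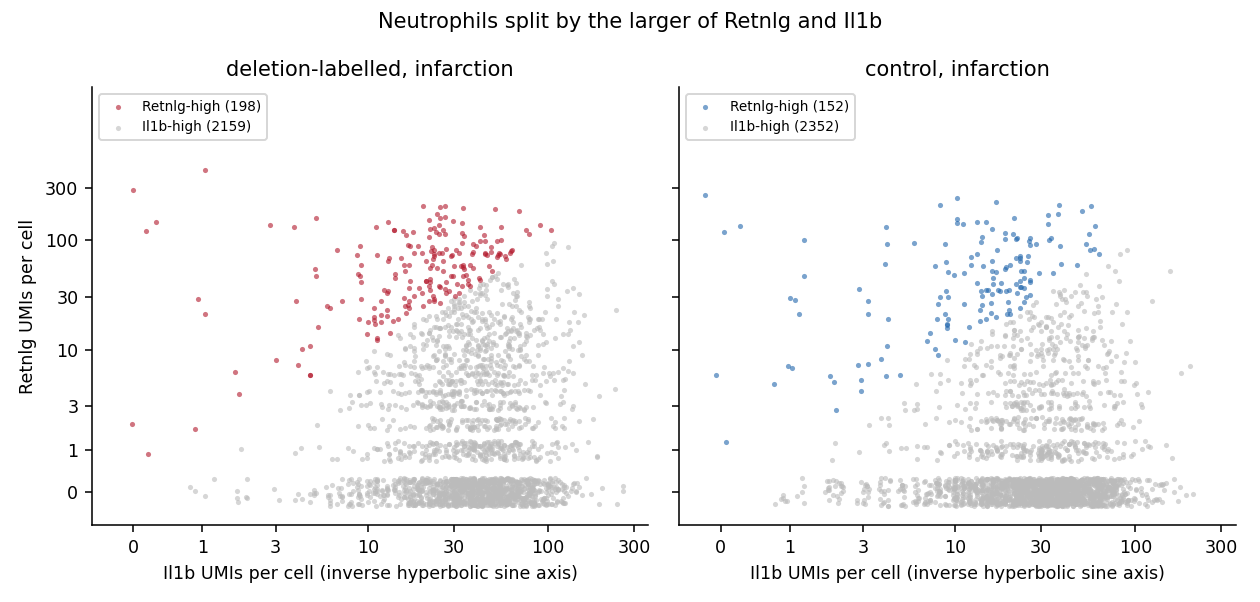
Retnlg UMIs (vertical) against Il1b UMIs (horizontal) in each neutrophil of the deletion-labelled (left) and control (right) infarction libraries, on inverse hyperbolic sine axes with a small random offset. The 198 and 152 Retnlg-high cells lie above the diagonal and the 2159 and 2352 Il1b-high cells below it; cells with equal counts or past the interferon limit are not drawn.

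The split was gradual. Per 10000 UMIs of a cell, Retnlg had a lowest value of 3.59, a median of 191 and a highest value of 624 in members of the deletion-labelled infarction library, and 6.37, 150 and 651 in those of the control infarction library. In the deletion-labelled infarction library 10 members exceeded the limit by 1 UMI (medians of 13 Retnlg and 12 Il1b UMIs), 24 cells had equal counts and 11 cells fell short by 1 UMI. Lcn2 stood at 1358, 1174 and 858 CPM in these 3 sets, in that order. In the control infarction library the sets held 8, 24 and 22 cells with Lcn2 at 1766, 820 and 875 CPM. Each of these sums was below that of all members, at 2825 and 2790 CPM in the deletion-labelled and control infarction libraries.

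All 5 marker genes given for these cells were found in them, with 1 exception in the smallest group. Retnlg (ENSMUSG00000022651, mm10 chromosome 16, 48872621 to 48874496, plus strand) stood at 19476 and 18272 CPM in members of the deletion-labelled and control infarction libraries, and at 16934 and 12388 CPM in the deletion-labelled and control libraries without infarction. Lcn2 (ENSMUSG00000026822, chromosome 2, 32384633 to 32388252, minus strand) encodes lipocalin 2, which binds bacterial siderophores. It stood at 2825 CPM (2703 to 2951) and 2790 CPM (2647 to 2938) in the deletion-labelled and control infarction libraries, and at 4246 and 1058 CPM in the deletion-labelled and control libraries without infarction. In single cells after infarction Lcn2 ran from 0 over a median of 20.9 to 164 per 10000 UMIs in the deletion-labelled library, and from 0 over 19.2 to 182 in the control library. The level of the whole group was therefore spread over most cells, and 171 of 198 and 127 of 152 members of the deletion-labelled and control infarction libraries held at least 1 Lcn2 UMI.

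Wfdc21 (ENSMUSG00000051748, chromosome 11, 83746940 to 83752642, plus strand), a secreted protein with a whey acidic protein domain, stood at 1757 and 2059 CPM in members of the deletion-labelled and control infarction libraries and at 2400 and 1190 CPM in the deletion-labelled and control libraries without infarction. Pglyrp1 (ENSMUSG00000030413, chromosome 7, 18871331 to 18890459, plus strand), a granule protein that binds bacterial peptidoglycan, stood at 1817 CPM (1719 to 1918) in the deletion-labelled and 1331 CPM (1233 to 1434) in the control infarction library, and at 1234 and 1146 CPM in the deletion-labelled and control libraries without infarction. Asprv1 (ENSMUSG00000033508, chromosome 6, 86628164 to 86629710, plus strand), a retroviral-type aspartic protease, was the marker found in the fewest members. It was present in 100 of 198 members of the deletion-labelled and 83 of 152 of the control infarction library, at 739 CPM in the deletion-labelled and 948 CPM in the control library. Without infarction it was found in 7 of 22 members of the deletion-labelled library and in 0 of 7 of the control library, where a count of 0 allows up to 132 CPM.

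Free RNA of other cells can put UMIs into a droplet, so the shares of cells with a UMI were compared at 1000 UMIs per cell, leaving out 1 shallower member. Lcn2 was then found in 68.5% (61.5 to 74.9) of members of the deletion-labelled and 68.4% (60.4 to 75.7) of the control infarction library, against 86.4% and 83.6% before thinning, and in 0.210% and 0.378% of their B cells. Median depths were 2738 and 2418.5 UMIs in those B cells. Asprv1 was found in 35.5% and 44.1% of thinned members of the deletion-labelled and control infarction libraries and in 0% and 0.189% of B cells, and Wfdc21 in 75.1% and 71.1% of members and 0.420% and 0.945% of B cells of these libraries. These markers stood far above the share in cells that should lack them.

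Genes that mark neutrophils in general were present as well. Cxcr2, the receptor for neutrophil-attracting chemokines, was found in 191 of 198 and 140 of 152 members of the deletion-labelled and control infarction libraries, and Mmp9 in 184 and 142 of them. Ly6g, the surface antigen used to identify mouse neutrophils, was found in 51 members of the deletion-labelled and 46 of the control infarction library, at 165 CPM (136 to 197) and 272 CPM (229 to 321). In Il1b-high cells Ly6g stood at 18.2 and 17.9 CPM in the deletion-labelled and control infarction libraries. Cxcr2 and Mmp9 were thus found in nearly every member and Ly6g in a smaller part of them.

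**Figure D2:**
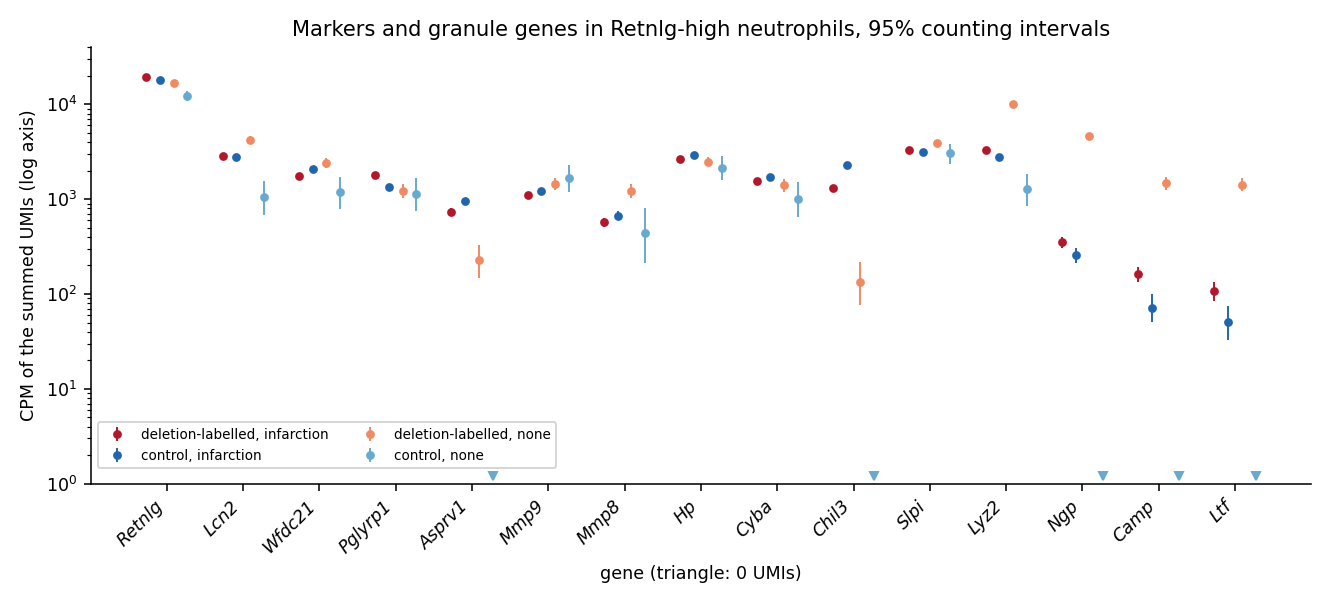
CPM of 15 marker and granule genes in the summed Retnlg-high neutrophils of each library (log axis), with exact 95% Poisson intervals; a triangle at the bottom marks 0 UMIs. For each of Lcn2, Mmp9 and Hp the points of both infarction libraries lie close together, while Ngp, Camp and Ltf are higher in the deletion-labelled library without infarction, at 4615, 1468 and 1427 CPM, and at 0 UMIs in its control.

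Most transcripts of the first granules were absent or nearly so, with Cd63 and Ctsc as exceptions. Mpo, Elane, Ctsg and Ms4a3, genes of azurophil granules and their precursor cells, had 0 UMIs in the members of all 4 libraries, which allows up to 4.19 CPM in the deletion-labelled and 5.83 CPM in the control infarction library. Fcnb, a gene of immature neutrophils, and Gfi1, a transcription factor of precursors, were at 0 UMIs too. Prtn3, a serine protease of azurophil granules, had 9 UMIs in 9 members of the deletion-labelled and 7 UMIs in 7 members of the control infarction library. Cd63, an azurophil membrane protein that many other cells also make, stood at 355 and 276 CPM in the deletion-labelled and control infarction libraries. Ctsc, also in the azurophil list, was found in 35 of 198 members of the deletion-labelled and 31 of 152 of the control infarction library. Division genes were rare: Mki67 was found in 3 and 2 members and Top2a in 1 and 2 members of the deletion-labelled and control infarction libraries.

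Most specific granule genes fell into 2 sorts, while Chil3, Cybb and Olfm4 belonged to neither. In the first sort, Lcn2, Hp, Mmp8 and Cyba were found in most members of both infarction libraries. Hp, which encodes the haemoglobin-binding protein haptoglobin, stood at 2676 and 2896 CPM in the deletion-labelled and control infarction libraries and was found in 193 of 198 and 147 of 152 members. Mmp8, neutrophil collagenase, stood at 568 CPM (515 to 626) in 127 members of the deletion-labelled and 668 CPM (600 to 743) in 80 members of the control infarction library. Cyba, a membrane subunit of the NADPH oxidase, stood at 1553 and 1715 CPM in the deletion-labelled and control infarction libraries. Its partner Cybb stood at 89.4 and 75.8 CPM in them, in 29 and 18 members. Olfm4 was found in 12 members of the deletion-labelled and 14 of the control infarction library. Chil3, a chitinase-like protein whose reads may be shared with its close copy Chil4, stood at 1329 CPM in the deletion-labelled and 2292 CPM in the control infarction library, in 73 members each. At 1000 UMIs per cell Chil3 was found in 27.4% and 40.1% of members of the deletion-labelled and control infarction libraries, against 4.2% and 5.29% of B cells and 14.7% and 10.3% of endothelial cells, so its share in members stood less far above cells that should lack it than those of Lcn2 and Wfdc21.

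The other sort, Ngp, Camp and Ltf, was concentrated in single cells. Ngp encodes neutrophilic granule protein (ENSMUSG00000032484, chromosome 9, 110419747 to 110423012, plus strand), Camp the antimicrobial cathelicidin (ENSMUSG00000038357, chromosome 9, 109847379 to 109849617, minus strand), and Ltf the iron-binding lactoferrin (ENSMUSG00000032496, chromosome 9, 111019271 to 111042767, plus strand). Ngp stood at 351 and 256 CPM in the deletion-labelled and control infarction libraries, Camp at 162 and 71.9 CPM, and Ltf at 108 and 50.5 CPM. At least 3 UMIs of the 3 genes together were held by 8 of 198 members of the deletion-labelled infarction library (4.04%, 1.76 to 7.81), 5 of 152 of the control infarction library (3.29%, 1.08 to 7.51), 2 of 22 in the deletion-labelled hearts without infarction and 0 of 7 in their control. In each of the 3 libraries that had such cells, 1 cell held most of the UMIs: 321 of 444 in the deletion-labelled infarction library, 146 of 195 in the control infarction library and 726 of 895 in deletion-labelled hearts without infarction.

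The leading cell of the deletion-labelled infarction library held 143 Ngp, 108 Camp and 70 Ltf UMIs among 7039 UMIs, beside 84 of Lcn2, 39 of Mmp8 and 285 of Retnlg. That of the control infarction library held 88 Ngp, 35 Camp and 23 Ltf UMIs among 11159, beside 108 of Lcn2 and 260 of Retnlg. That of the deletion-labelled library without infarction held 443 Ngp, 151 Camp and 132 Ltf UMIs among 13096, beside 189 of Lcn2 and 173 of Retnlg. All 3 cells had 0 UMIs of Il1b, Mpo, Elane and Fcnb, none was marked as a possible doublet, and their depths were above the members' medians. They carried transcripts of specific granules without Mpo or Elane of azurophil granules.

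The 8 and 5 cells with early granule transcripts of the deletion-labelled and control infarction libraries also differed from the other members in genes outside that choice. Mmp8 stood at 1939 CPM in these 8 cells and 491 CPM in the other 190 members of the deletion-labelled infarction library (log2 ratio 1.98, 1.6 to 2.35), and at 1786 CPM in the 5 cells and 605 CPM in the other 147 members of the control infarction library (1.56, 1.09 to 2.0). Of the Mmp8 UMIs of these cells 1 cell held 39 of 74 in the deletion-labelled and 1 cell 31 of 49 in the control library. Lcn2 was higher in them by log2 ratios of 1.4 (1.2 to 1.58) in the deletion-labelled and 1.37 (1.13 to 1.59) in the control infarction library. The leading cell held 84 of their 261 Lcn2 UMIs in the deletion-labelled and 108 of 182 in the control library. Cd177, a surface glycoprotein of neutrophil granules, was higher by 3.15 (2.19 to 4.06) in the deletion-labelled and 2.75 (1.75 to 3.67) in the control infarction library. Il1b, which the rule used, was at 1205 CPM in these cells and 7089 CPM in the rest in the deletion-labelled and 2697 and 5140 CPM in the control infarction library. Chil3 stood at 52.4 CPM in the 8 cells (2 UMIs) and 1401 CPM in the rest of the deletion-labelled library. In the control library it stood at 5539 CPM in the 5 cells, of whose 152 UMIs 109 were in 1 cell, and 2109 CPM in the rest. Without these cells Ngp stood at 20.7 CPM (14 UMIs) and 22.6 CPM (11 UMIs) in the deletion-labelled and control infarction libraries.

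Early granule transcripts were rarer among Il1b-high cells. There 9 of 2159 cells of the deletion-labelled infarction library (0.417%, 0.191 to 0.790) and 2 of 2352 of the control infarction library (0.0850%, 0.0103 to 0.307) held at least 3 UMIs of Ngp, Camp and Ltf, and the leading cells held 9 and 3 UMIs. One neutrophil of the deletion-labelled infarction library that was past the interferon limit, and so was no member, held 325 such UMIs, and one without infarction of the same genotype held 1397 among 25971 UMIs. The latter cell also held 247 UMIs of the endothelial gene Fabp4 and 0 of Mmp8, and it was not marked as a possible doublet. The interferon limit thus set aside single cells with more UMIs of early granule transcripts than any member of their library. These counts are not adjusted for depth, which was 7443 UMIs in the first cell.

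**Figure D3:**
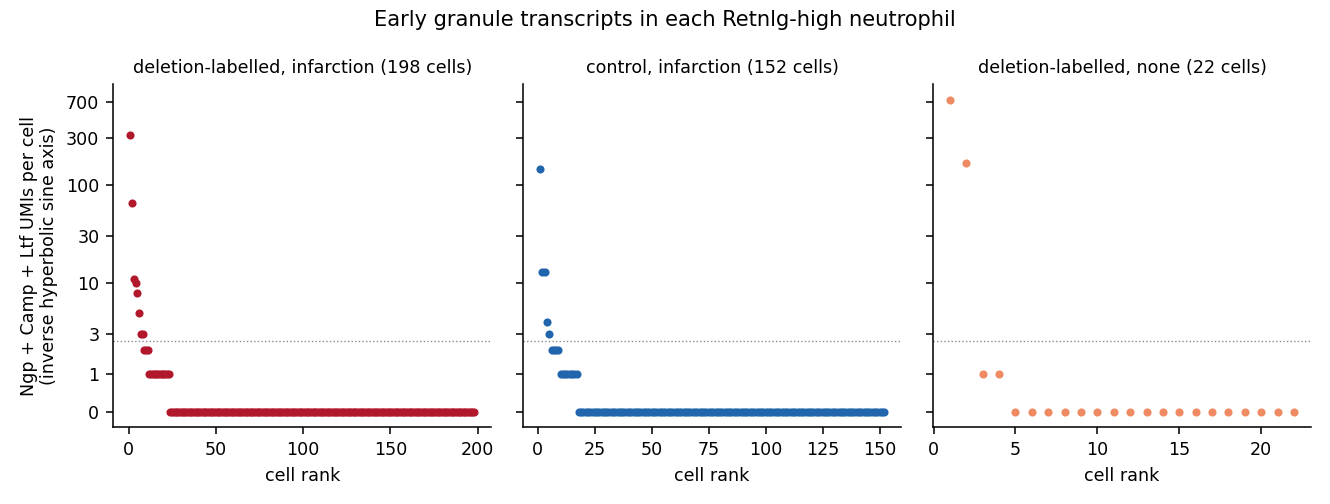
Summed Ngp, Camp and Ltf UMIs in each Retnlg-high neutrophil, ranked from highest to lowest, in the deletion-labelled (left) and control (middle) infarction libraries and the deletion-labelled library without infarction (right), on an inverse hyperbolic sine axis. The dotted line separates cells with at least 3 UMIs, which number 8, 5 and 2, and the leading cells hold 321, 146 and 726 UMIs.

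Gelatinase granule genes differed in how many members held them. Mmp9, Slpi, Lyz2 and Itgam were found in most members of both infarction libraries. Adam8 was found in 115 of 198 members of the deletion-labelled and 79 of 152 of the control infarction library, Mmp25 in 30 and 14, and Ptx3 in 2 and 0. Mmp9, the gelatinase that names these granules, stood at 1107 CPM (1032 to 1187) and 1210 CPM (1117 to 1309) in the deletion-labelled and control infarction libraries, and at 1460 and 1675 CPM in the deletion-labelled and control libraries without infarction. Slpi, an inhibitor of leukocyte proteases, stood at 3339 and 3133 CPM in the deletion-labelled and control infarction libraries, and Lyz2, lysozyme, at 3273 and 2821 CPM. Lyz2 reached 10229 CPM in the deletion-labelled library without infarction, against 1278 CPM in its control. Itgam, a chain of the integrin Mac-1, stood at 415 and 472 CPM in the deletion-labelled and control infarction libraries.

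Of genes tied to circulating mature cells, Mxd1, a MAX-binding repressor that opposes MYC, stood at 1166 and 1066 CPM in the deletion-labelled and control libraries after infarction and at 1427 and 2866 CPM in those without it. S100a6, a calcium-binding protein, stood between 6078 and 6403 CPM in the 4 libraries. Among transcription factors Cebpb stood at 4756 and 4761 CPM in the deletion-labelled and control infarction libraries, Spi1, which encodes PU.1, at 866 and 831 CPM, and Cebpe, the factor of specific granule formation, at 23.7 and 35.0 CPM in 16 and 12 cells. Cebpb and Spi1 were thus close in the deletion-labelled and control hearts after infarction.

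The genotypes were close after infarction in most lists of neutrophil genes. A gene was measured when it had at least 30 UMIs and 50 CPM in at least 1 of the 2 sums, and 2604 genes were. In the deletion-labelled members 257 of these (9.87%) were higher by 1.5-fold or more and 142 (5.45%) were lower by as much, and the median log2 ratio over all of them was 0.07. Of 9 measured specific granule genes 2 were higher and 1 was lower by that size, with a median of 0.02, and of 7 measured gelatinase granule genes Mmp25, a membrane-bound protease (0.65, -0.22 to 1.57), was higher and none lower, with a median of 0.13. Of 16 measured genes of circulating mature neutrophils none was higher and 1 was lower, with a median of -0.08. Tissue entry and activation had 16 measured genes, of which 3 were higher and 2 were lower, and their median was 0.33. None of the 6 NADPH oxidase genes differed by 1.5-fold, and of 16 measured transcription factors 1, Nfkb1 (-0.77), was lower.

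The specific granule genes past 1.5-fold were Camp (log2 ratio 1.17, 0.63 to 1.75) and Ltf (1.09, 0.43 to 1.79), which were higher, and Chil3 (-0.79, -0.91 to -0.66), which was lower. In Camp 93.1% and 94.6% of the UMIs of the deletion-labelled and control infarction libraries came from 1 cell each, and in Ltf 90.9% and 88.5%. The lower gene of the mature list was Ly6g (-0.72, -1.09 to -0.36). Chil3 turned to 0.21 when the rule was applied at 1000 UMIs per cell. Of the markers, Lcn2 was at 0.02 (-0.08 to 0.12), Wfdc21 at -0.23, Asprv1 at -0.36 (-0.54 to -0.18) and Pglyrp1 at 0.45 (0.31 to 0.58), all within 1.5-fold.

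Genes of activation differed in both directions. Ccl4, a chemokine, was higher in the deletion-labelled members (1.18), as were Cxcr4, the receptor that holds neutrophils in the marrow (0.78, 0.31 to 1.27), and Cd14, a membrane co-receptor for bacterial lipopolysaccharide (0.73, 0.61 to 0.84). Ccl3, another chemokine (-1.09), and Tnf, tumour necrosis factor (-0.87), were lower. Cd14 stood at 2801 CPM in 169 deletion-labelled and 1694 CPM in 117 control members, whereas Ccl4 was found in 17 and 19 members, with 124 of 183 deletion-labelled UMIs in 1 cell, and turned to -1.31 when S100a8 and S100a9 had to reach 5% of UMIs. In Il1b-high cells of the same libraries the log2 ratio of Cd14 was 0.74 and that of Ccl3 was -0.45. Anxa3, an annexin of granule membranes, was lower in the deletion-labelled members (-0.98) and at -0.09 in Il1b-high cells.

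**Figure D4:**
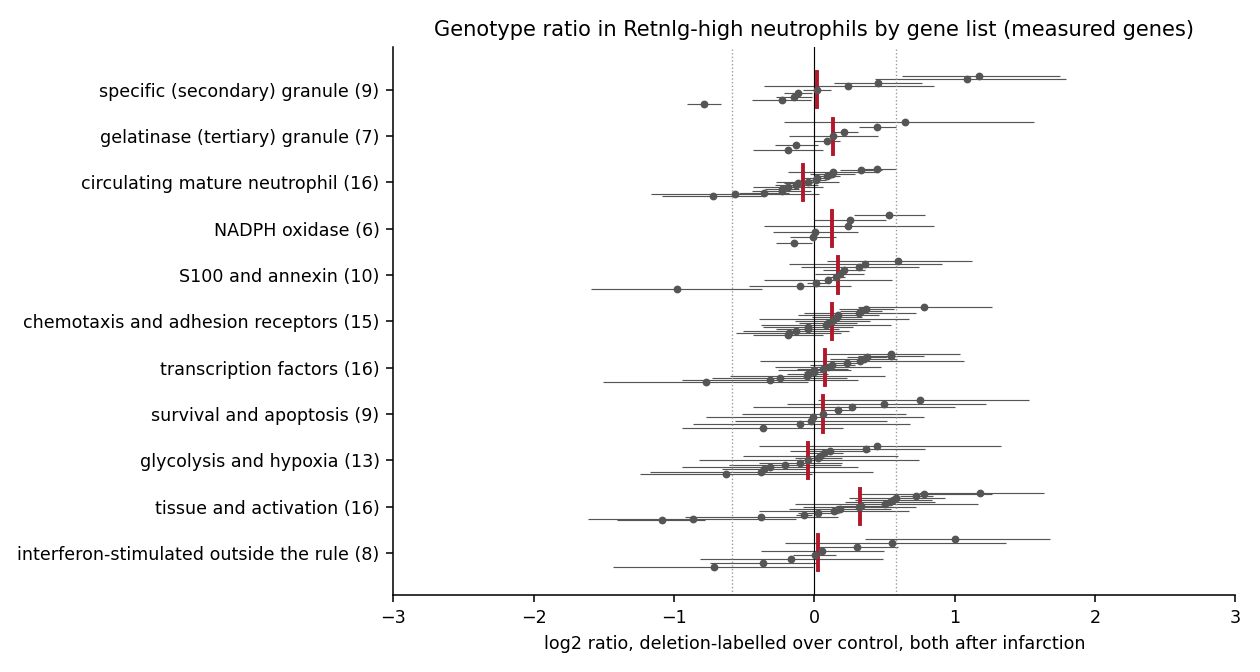
Log2 ratios of CPM, deletion-labelled over control after infarction, for the measured genes of 11 lists in Retnlg-high neutrophils (points, with 95% counting intervals), the list medians (thick bars) and 1.5-fold limits (dotted lines). Among the lists drawn, medians run from -0.08 for circulating mature genes to 0.33 for tissue and activation genes, beside 0.07 over all 2604 measured genes; the secretory vesicle and surface list, at -0.13, is not drawn.

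Among the 20 genes with the largest genotype ratios, 5 that were singled out after their values were seen were spread over many cells. Gstp3, a glutathione transferase, had 63 UMIs in 44 deletion-labelled members and 2 UMIs in 2 control members (log2 ratio 3.92, 2.59 to 7.58, with counts below 3 raised to 3). Mgst2, a microsomal glutathione transferase, went the other way, with 10 UMIs in 6 deletion-labelled and 171 UMIs in 85 control members (-4.57, -5.66 to -3.66). The other three were 1600014C10Rik (2.03, 1.35 to 2.77), found in 57 deletion-labelled and 20 control members, Gm26740 (-2.87, -3.95 to -1.93), found in 11 and 46, and Cd3d, a chain of the T cell receptor complex (3.41, 1.97 to 5.33), found in 30 and 1. Each kept its direction without the cell that held most of its UMIs, at 3.85 for Gstp3, -5.02 for Mgst2, 2.05 for 1600014C10Rik, -2.93 for Gm26740 and 3.37 for Cd3d.

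The same 5 genes differed in the same direction in Il1b-high cells of these 2 libraries. Gstp3 was found in 437 of 2159 deletion-labelled and 36 of 2352 control Il1b-high cells (log2 ratio 3.74), and Mgst2 in 6 and 760 cells (-6.54). Gm26740 was found in 56 and 551 cells (-3.54), 1600014C10Rik in 736 and 317 (2.17) and Cd3d in 102 and 26 (2.20). Members and Il1b-high cells thus shared these differences. Without infarction Mgst2 was found in 4.55% of 22 deletion-labelled and 42.9% of 7 control members, Gm26740 in 22.7% and 42.9%, and Gstp3 in 22.7% and 0%. The gene 1600014C10Rik was found there in 4.55% and 14.3%, opposite in direction to its ratio after infarction. Cd3d was found in 50% and 14.3%. Other T cell genes were nearly absent, with 5 Cd3e and 3 Trac UMIs in the deletion-labelled and 2 and 1 in the control infarction members.

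The other 15 of these genes rested mostly on few cells. Of the Prg4 UMIs in deletion-labelled members 83.3% came from 1 cell, and its log2 ratio of 4.11 became 1.56 without the leading cells. Tnc was higher by 3.43 and Cthrc1 by 3.22, with 82.2% and 76.9% of their UMIs in 1 deletion-labelled member, and stood at 0.98 and 1.14 without the leading cells. Timp1 was higher by 3.9, Tmem176a by 3.26, Tmem176b by 3.22 and Serpinb6a by 1.98, and 55.9%, 40%, 38.5% and 32.7% of their UMIs came from 1 cell. All 7 of these genes turned lower in deletion-labelled members when the rule was applied at 1000 UMIs per cell, and Timp1 also when marked doublets were left out (-0.17). Spp1, osteopontin, was lower (-3.29) with 87.0% of the control UMIs in 1 cell, and stood at -0.86 without the leading cells and -0.15 in Il1b-high cells. eGFP, an added sequence in the gene list, was lower (-4.69) with 179 of 185 control UMIs in 1 cell, and at 0.080 without the leading cells. Hist1h1b (-4.28), Igfbp3 (-4.06), Rnase6 (-3.48), Siglech (-3.38), Hist1h2ap (-3.18) and Rgs10 (-2.48) were lower, with between 38.9% and 100% of control UMIs in 1 cell, and reads of histone genes may be shared between near-identical copies. Rnase6 stood at -2.1 and Hist1h2ap at -1.91 without the leading cells, and Rnase6 and Siglech turned higher with the rule at 1000 UMIs per cell.

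UMIs of other cell types differed between the deletion-labelled and control infarction libraries, in part through single cells. Summed over their marker lists, mural genes stood at 751 CPM in deletion-labelled and 62.2 CPM in control members after infarction, fibroblast genes at 1015 and 610, macrophage genes at 302 and 1055, dendritic cell genes at 607 and 1424, endothelial genes at 856 and 1459 and erythroid genes at 58.7 and 214. All 7 macrophage and all 5 endothelial genes had UMIs in both libraries, while the dendritic genes Cd209a and Xcr1 and, by the rule, Pdgfra had none. Single cells held much of this, for example 165 of 203 Rgs5 UMIs in the deletion-labelled and 258 of 442 Cd74 UMIs in the control infarction library. In the control library each of the 5 erythroid genes had all its UMIs in 1 cell. Of the 751 endothelial UMIs of that library, 630 were of Fabp4 in 1 cell. T and NK cell genes stood at 106 CPM (76 UMIs) in deletion-labelled and 19.4 CPM (10 UMIs) in control members, and 59 of the 76 and 4 of the 10 UMIs were of Cd3d alone. The part of these other cell types in the genotype ratios was not tested.

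Members after infarction were also set against those without it, for which only 22 deletion-labelled and 7 control cells stand. The median log2 ratio of the measured tissue and activation genes was 0.89 in the deletion-labelled and -0.35 in the control hearts, and that of glycolysis and hypoxia genes 0.94 in the deletion-labelled and 0.75 in the control hearts. Over all measured genes the medians were 0.13 in the deletion-labelled (2591 genes) and -0.57 in the control hearts (2082 genes). Sums below 3 UMIs were raised to 3, which is 132 CPM in the 7 control cells. A gene below 132 CPM after infarction therefore counted as lower there even at 0 UMIs without it. Summed, the tissue and activation genes of the control hearts stood at 14194 CPM after infarction and 7583 CPM without it, opposite to their median. The part of the floor in the control medians was not tested. Wfdc17, a secreted protein with a whey acidic protein domain, had the highest ratio in the deletion-labelled genotype, with 2683 UMIs in 166 members after infarction and 22 UMIs in 9 members without it (log2 ratio 4.34, 3.74 to 5.02). Ccl2, Timp1 and Cxcl3 had 0 UMIs in the 22 members without infarction, and were found in 34, 16 and 41 of the 198 members after it. Their log2 ratios of 4.28, 4.01 and 3.98 were thus computed against the floor of 3 UMIs per library. Their 95% counting intervals begin at 3.97, 3.7 and 3.68. After infarction 1 cell held 181 of 349 Ccl2, 162 of 290 Timp1 and 43 of 285 Cxcl3 UMIs. Without the cell that held most of their UMIs, the ratios against the floor were 3.16, 2.78 and 3.66. Over all kept barcodes of the deletion-labelled libraries Timp1 stood at 1084 CPM after infarction and 19.8 CPM without it, against 405 CPM in members after infarction. Mif, a cytokine, had 255 UMIs against 1 (3.82, 2.92 to 10.72). Cxcl2, a neutrophil-attracting chemokine, was higher after infarction in both genotypes, with log2 ratios of 1.96 (1.77 to 2.15) in the deletion-labelled and 1.55 (1.19 to 1.93) in the control hearts. Nfkbia, the inhibitor of NF-kappaB, was higher by 1.71 (1.29 to 2.16) in the deletion-labelled and 1.29 (0.47 to 2.25) in the control hearts. The glycolytic gene Gapdh was higher by 1.3 (0.96 to 1.66) in the deletion-labelled and 1.5 (0.69 to 2.46) in the control hearts.

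Chil3 and Asprv1 were higher after infarction in both genotypes. In the deletion-labelled hearts Chil3 had 952 UMIs after infarction and 16 without (3.31, 2.60 to 4.12). Those 16 were all in the 2 cells with early granule transcripts. In the control hearts Chil3 had 1180 and 0 UMIs (4.12 against the floor of 3 UMIs). Asprv1 had 529 UMIs after infarction and 27 without in the deletion-labelled hearts (1.71, 1.15 to 2.32). In the control hearts it had 488 and 0 UMIs (2.84 against the floor of 3 UMIs). Granule genes did not share 1 direction. Lcn2 had log2 ratios of -0.59 (-0.73 to -0.44) in the deletion-labelled and 1.40 (0.82 to 2.05) in the control hearts, and Mmp8 of -1.10 (-1.38 to -0.81) in the deletion-labelled and 0.60 (-0.30 to 1.67) in the control hearts. Mmp9 stood at -0.40 (-0.64 to -0.15) in the deletion-labelled and -0.47 (-0.94 to 0.04) in the control hearts, and Hp at 0.10 (-0.07 to 0.28) and 0.42 (0.01 to 0.86). Without the cells with early granule transcripts the Lcn2 ratio of the deletion-labelled hearts turned to 0.42 (0.21 to 0.64), with 2599 CPM after infarction and 1940 CPM without, and that of Mmp8 was -0.53 (-0.91 to -0.14). The difference between the genotypes was not tested, and 315 of 506 Lcn2 UMIs of the deletion-labelled library without infarction came from the 2 cells with early granule transcripts. The lowest ratios in the deletion-labelled hearts, those of Ltf (-3.73), Ngp (-3.72), Camp (-3.18), Rgs5 (-2.62) and Utrn (-2.04), had 77.6%, 80.5%, 86.3%, 99.0% and 65.4% of their UMIs without infarction in 1 cell, and Rgs5 turned to 0.95 without the leading cells.

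Between genotypes without infarction, with 22 deletion-labelled against 7 control members, Lyz2 (log2 ratio 3.0, 2.47 to 3.58), Lcn2 (2.0, 1.41 to 2.66), Cd14 (2.36, 1.57 to 3.29) and Mmp8 (1.46, 0.54 to 2.56) were higher. Without the 2 cells with early granule transcripts Lcn2 was at 0.87 (0.26 to 1.55), with 1940 CPM in deletion-labelled and 1058 CPM in control members, and Mmp8 at 0.69 (-0.27 to 1.81), while Lyz2 was at 2.97 and Cd14 at 2.38. Fabp4, an endothelial gene, was found in 81.8% of the 22 and 57.1% of the 7 members. At 1000 UMIs per cell it was found in 40.9% of those 22 members and 44.6% of the B cells of the same library, so the members did not exceed the share in cells that should lack it.

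Retnlg-high cells held more granule and fewer activation transcripts than Il1b-high cells of the same library. The rule made this contrast, so the values describe the split and no more. By the 1.5-fold limit, 231 of 3000 measured genes (7.7%) were higher and 739 (24.6%) lower in Retnlg-high cells of the deletion-labelled infarction library. In the control infarction library 235 of 2960 (7.94%) were higher and 842 (28.4%) lower. The medians over all measured genes were -0.25 in the deletion-labelled and -0.31 in the control infarction library. With median-of-ratios scaling, which moved these medians by 0.16 and 0.20, 348 were higher and 479 lower in the deletion-labelled and 346 and 521 in the control infarction library. Of 2789 genes measured in both libraries, 136 were higher in both, which is 71.6% of the 190 higher in the deletion-labelled and 67.7% of the 201 higher in the control library. Lower in both were 405, which is 60.7% of 667 and 51.7% of 784.

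Of 9 measured specific granule genes 7 were higher in Retnlg-high cells of each infarction library, with median log2 ratios of 1.64 in the deletion-labelled and 1.61 in the control. Without the cells with early granule transcripts the medians were 0.89 in the deletion-labelled and 0.90 in the control library. Mmp8 was higher by 1.96 (1.78 to 2.13) in the deletion-labelled and 2.42 (2.23 to 2.6) in the control infarction library, and Lcn2 by 1.64 (1.57 to 1.72) and 1.61 (1.53 to 1.7). Ngp had 251 UMIs in Retnlg-high and 19 in Il1b-high cells of the deletion-labelled library (6.85) and 132 and 12 in the control (7.07), and Camp 116 and 3 (8.40, 6.82 to 10.70) and 37 and 5 (6.50). Without the leading cells Ngp stood at 6.58 and 5.78, and Camp at 4.56 and 3.23, in the deletion-labelled and control libraries. Ltf, at 2.70 and 2.34, stood at -0.68 in both libraries without the leading cells. Chil3 was at -0.99 in the deletion-labelled and -0.48 in the control library. Of 16 genes of circulating mature neutrophils 11 in the deletion-labelled and 12 in the control infarction library were higher and none lower, among them Ly6g (3.18 and 3.92), Wfdc21 (1.97 and 1.98) and S100a6 (1.11 and 1.41).

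Stefin genes, which encode cysteine protease inhibitors and share reads through near-identical copies, were also higher, with Stfa3 at 5.16 in the deletion-labelled and 3.9 in the control infarction library, Stfa2 at 3.58 and 3.56 and Cstdc5 at 3.14 and 3.46. The receptor gene Mrgpra2b was at 2.15 and 2.21. Mmp9 was at -0.53 (-0.63 to -0.42) in the deletion-labelled and -0.23 (-0.35 to -0.12) in the control library, and Cyba at 0.056 and 0.19, so not every granule gene was higher in Retnlg-high cells.

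Of genes of tissue entry and activation 15 of 18 measured in the deletion-labelled and 15 of 19 in the control infarction library were lower in Retnlg-high cells and none was higher, except 1 in the deletion-labelled library with median-of-ratios scaling. Their medians were -1.28 in the deletion-labelled and -1.37 in the control infarction library. Tnf was at -2.81 (-3.39 to -2.28) in the deletion-labelled and -2.14 (-2.65 to -1.68) in the control infarction library, Icam1, an adhesion molecule, at -2.01 and -2.99, Cxcl2 at -1.37 in both, Nfkbia at -1.46 and -1.38 and Tnfaip3, a brake on NF-kappaB, at -1.97 in both. The 10 most lowered genes that pointed the same way in both libraries also held, with the deletion-labelled and control values in brackets, Scimp (-3.76 and -2.17), an adaptor of antigen-presenting cells, Dusp2 (-2.30 and -3.12), a phosphatase of MAP kinases, the pattern receptor Clec4n (-2.0 and -2.34), the G protein subunit Gngt2 (-2.09 and -1.94), the leukotriene receptor Cysltr1 (-2.22 and -1.92), Trnau1ap (-2.09 and -2.43) and Gm12840 (-3.65 and -3.16). Egr1, an immediate-early transcription factor, was at -1.29 in the deletion-labelled and -1.58 in the control library. Of 16 measured transcription factors 6 were lower in each library.

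These differences were graded along the Retnlg share of Retnlg and Il1b UMIs. The steps from 0 to 10, 10 to 25, 25 to 50, 50 to 75 and 75 to 100% held 1643, 308, 225, 121 and 77 cells in the deletion-labelled and 2024, 187, 154, 82 and 70 cells in the control infarction library. Lcn2 stood at 779, 1091, 1591, 2308 and 3649 CPM over these steps in the deletion-labelled and 776, 1490, 1949, 1733 and 3924 CPM in the control infarction library. Ly6g stood at 8.21, 21.7, 94.3, 54.5 and 341 CPM in the deletion-labelled and 9.14, 24.5, 128, 154 and 399 CPM in the control infarction library. Cxcl2 ran the other way, with 21297 CPM in the first and 6236 CPM in the last step of the deletion-labelled and 21898 and 6644 CPM in the control infarction library. Ngp reached 884 CPM in the deletion-labelled and 508 CPM in the control library in the last step, where the leading cells lie, and Cxcr2 stayed between 1298 and 1737 CPM in the deletion-labelled and between 968 and 1395 CPM in the control infarction library.

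**Figure D5:**
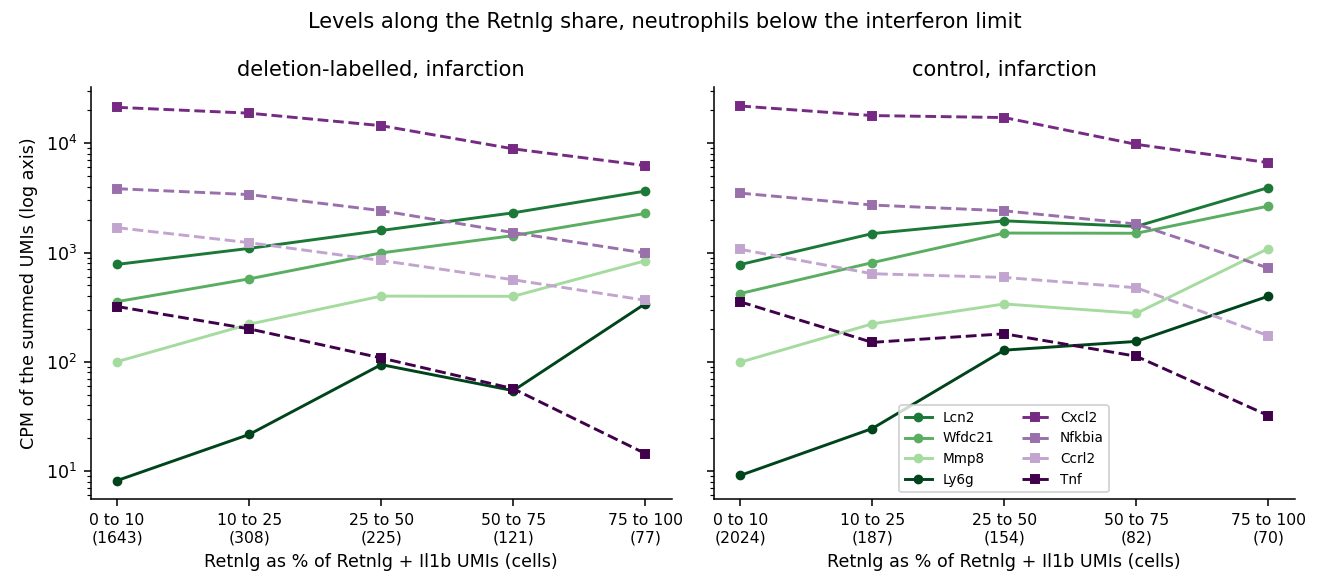
CPM of 4 granule or mature genes (solid lines) and 4 activation genes (dashed lines) over 5 steps of the Retnlg share of Retnlg and Il1b UMIs (log axis, cells per step below), in the deletion-labelled (left) and control (right) infarction libraries. Lcn2 ends at 3649 and 3924 CPM and Cxcl2 at 6236 and 6644 CPM in the highest step, against 779 and 776 CPM and 21297 and 21898 CPM in the lowest.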

How the data were processed

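Live nucleated cells of mouse hearts were measured in 4 single-cell libraries, 1 per group. Each library was deposited as a matrix of unnormalised UMI counts. Per the submitters' processing notes, Cell Ranger 5.0.1 and mm10 were used; the annotation is not given in the sources used here. Gene positions are from GENCODE M21, and promoters from RefSeq on GRCm38.p6 were matched by symbol for 18 of 21 genes. The members, lists and rules were chosen with earlier results of these data known.

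UMIs were summed over the members of each library and expressed as CPM, with exact Poisson intervals. Ratios between 2 sums are log2 ratios of CPM with a Clopper-Pearson interval conditional on the total of both counts. Exact Clopper-Pearson intervals are given for shares. Intervals and the limit of 3 UMIs that a count of 0 allows cover counting error only. Sums below 3 UMIs were raised to 3 in ratios. With 1 library per group no test was run, and 1.5-fold is a rule of size. Genes named singly had at least 50 CPM and 30 UMIs in at least 1 sum, were not mitochondrial and were not below a ratio of 0.1 to another cell class of the libraries. They were the 10 highest and 10 lowest in the genotype comparison, the 10 each way that pointed the same way in both infarction libraries between Retnlg-high and Il1b-high cells, and the 5 each way after infarction in the deletion-labelled hearts, beside list members, markers and granule genes. The use of 50 CPM for counts of genes was set after the data had been seen. Fibroblasts, B cells and endothelial cells were barcodes outside the neutrophils that held at least 3 UMIs of a marker list of which a larger share of genes was found than of any other list.

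Doublets were scored in each library with scrublet in scanpy, the top 0.8% per 1000 barcodes were marked, and none was removed in the values reported. Thinning drew 1000 UMIs per cell. Alternatives were other limits of the rule, other scalings and other minimum counts; leaving out cells with early granule transcripts, members above 8000 UMIs or the leading cell of a gene was chosen after seeing the data. Ratios and intervals were checked on simulated data. Python 3.11.15, numpy 2.4.6, scipy 1.17.1, pandas 2.3.3, scanpy 1.11.5 and matplotlib 3.10.9 were used.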

Additional observations from a re-analysis of the deposited data

Results flagged for a closer look

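Slfn5, an interferon-induced gene outside the rule, pointed opposite ways between genotypes after infarction. Its log2 ratio of deletion-labelled over control was -0.72 in Retnlg-high cells and 0.81 in Il1b-high cells, and the difference between these ratios was not tested.

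eGFP, a sequence added to the gene list and not used to choose cells, had UMIs in members of all 4 libraries. There were 10 UMIs in the deletion-labelled infarction library, with at most 1 per cell, 185 in the control infarction library, of which 179 were in 1 cell, 5 in the deletion-labelled library without infarction, with at most 2 per cell, and 1 in the control library without infarction.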

How the results depend on the processing

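No paired analysis was possible because 1 library stands for each group. For the same reason no replicate could be left out. List medians counted as moved when they changed by over 1.5-fold, a limit set after seeing the data, and the cause was not tested for any value below. Over the shares, list medians and counts of genes, 165 values kept their size under an alternative and 19 moved; over single genes 1180 kept it, 387 moved in size and 25 reversed. A barcode minimum of 1000 UMIs and a mitochondrial limit of 10% moved none of them.

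The share of members among kept barcodes of the deletion-labelled infarction library was 1.52% with S100a8 and S100a9 at 5% or more, 0.734% with Retnlg at least 3 times Il1b and 1.51% with the rule at 1000 UMIs per cell, and the control share was 0.733% with Retnlg at least 3 times Il1b. Among neutrophils the shares were 14.6% and 9.85% in the deletion-labelled and control infarction libraries under the S100 limit, and 2.98% and 2.77% under the Retnlg limit. The intervals of the 2 genotypes overlapped under the Retnlg limit (2.35 to 3.71 and 2.18 to 3.47) and not under the S100 limit (12.5 to 16.8 and 8.33 to 11.5). Genes higher between genotypes numbered 157 with Retnlg at least 3 times Il1b, 400 without the interferon limit and 1135 with a minimum of 10 UMIs and no CPM limit, and genes lower 89, 546 with the rule at 1000 UMIs per cell and 624 with 10 UMIs.

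Between Retnlg-high and Il1b-high cells, the specific granule median was 0.89 (deletion-labelled) and 0.90 (control) without cells with early granule transcripts, 0.31 (control) with the rule at 1000 UMIs and 0.99 (control) with the mean CPM per cell, and the activation median was -1.87 (deletion-labelled) with Retnlg at least 3 times Il1b. Genotype medians ranged from -0.14 to 0.29 for specific granule genes over all alternatives.

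With the rule at 1000 UMIs per cell, genotype ratios reversed to -2.97 for Prg4, -3.28 for Timp1, -3.95 for Tnc, -1.23 for Tmem176a, -0.58 for Tmem176b, -4.73 for Cthrc1, -3.09 for Serpinb6a, 0.44 for Rnase6, 0.50 for Siglech and 0.21 for Chil3, and the Ltf ratio of Retnlg-high over Il1b-high cells to -1.53 (deletion-labelled) and -1.05 (control). Timp1 also reversed to -0.17 without marked doublets, -0.22 with the S100 limit, -1.22 with the Retnlg limit and -0.12 without members above 8000 UMIs, and Serpinb6a to -0.41 under the last. Ccl4 reversed to -1.31 with the S100 limit and -1.93 with the Retnlg limit, and eGFP to 0.26 without cells with early granule transcripts and 0.080 without its leading cells. The Lcn2 ratio of infarction over none in deletion-labelled hearts reversed to 0.42 and Ltf of Retnlg-high over Il1b-high cells to -1.91 (deletion-labelled) and -0.70 (control) without cells with early granule transcripts, and to -0.50 (control) without members above 8000 UMIs. Gstp3 stayed between 2.42 and 4.12, Mgst2 between -5.44 and -3.95, Gm26740 between -3.22 and -2.65, 1600014C10Rik between 1.86 and 2.24 and Cd3d between 2.78 and 3.96 over all alternatives. Depth limits the hearts without infarction most, where a count of 0 allows up to 25.2 CPM in the deletion-labelled and 132 CPM in the control library.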
